A study of Danio rerio with 8 samples.

Results

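The unfolded protein response and the integrated stress response were described in RNA sequencing libraries of zebrafish embryos exposed to the lipid mediator 7,17-diHDPAn-3 and of control embryos. 42 genes of these responses were listed by name. A row of the count table was taken where its symbol matched, with or without the fish paralog letter, and where it held at least 10 counts over the 8 libraries. 41 rows met the rule, of 32020 rows in the table, and all 41 passed the filter on low counts and were tested. The entry atf6b matched no row and was not analysed here. The entries eif2s1a and eif2s1b met 2 rows that share the symbol EIF2S1, and the entries dnajb9a and dnajb9b met 2 rows that share the symbol DNAJB9. The name table does not say which paralog each row holds, and the values are given as row 1 and row 2.

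The treated group held 4 libraries (numbered 5 to 8) from embryos that received 7,17-diHDPAn-3, which cells make from the omega-3 fatty acid docosapentaenoic acid by adding hydroxyl groups. The control group held 4 libraries (numbered 1 to 4). The lipid was dissolved in ethanol, and no label says that control embryos received ethanol. The design text names the AB wild type strain and the reporter lines Tg(gata1: Dsred) and Tg(CD41:GFP) and ties no library to any of them. It describes an exposure to omega-3 metabolites at 1.5 µM between 11 and 36 hours post fertilization, and tests of this lipid at 1 to 1.75 µM. The sources used here do not give the dose, hours or embryo age of these 8 libraries, nor whether embryos were pooled or cells sorted, and an extra mark, 2b, in the library name of control 4 is not explained. The names of all 8 libraries also carry the mark gata_1, and the sources used here do not say what it stands for. No label ties a library to its own clutch. The p-values therefore speak of the spread among the 8 samples, and that spread may be technical.

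Cells sense misfolded protein in the endoplasmic reticulum (ER) with sensors in the ER membrane that feed separate arms. PERK (EIF2AK3) phosphorylates the translation factor eIF2 alpha, which slows most translation and favours that of ATF4, a transcription factor of amino acid and stress genes. Kinases that respond to amino acid or heme shortage act on the same factor, and the shared output is called the integrated stress response. IRE1 (ern1) splices the XBP1 message, so that it encodes an active transcription factor of ER folding and degradation genes. ATF6 travels to the Golgi, is cut there and then raises ER chaperone genes. Secretory tissues of the embryo, such as the hatching gland and the notochord, are known for heavy use of this system. The split of genes into arms follows work in mammals, and many ER chaperones answer to both XBP1 and ATF6. The splicing of XBP1, the phosphorylation of eIF2 alpha and the translation of ATF4 are not measured by counts per gene.

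Totals ran from 2502636 counts in treated 5 to 4794081 in control 1, and treated 6 held 3800120. Values are CPM (counts scaled to a common library size with TMM factors), fold changes are treated over control on the log2 scale with their standard error (SE), and a gene passed where its p from edgeR's quasi-likelihood test, adjusted over 14249 genes by Benjamini and Hochberg, was at most 0.05. By the labels the cells are red cell progenitors and red cells of embryos. Red cell markers, alas2 and the globin hbae3 among them, summed to a share of the scaled counts of 0.339 to 0.848% in treated and 0.362 to 0.845% in control libraries, and skeletal muscle markers summed to 1.08 to 2.42% in treated and 0.197 to 1.77% in control libraries. Of the red cell list, 3 of 19 entries (the globins hbbe1.1, hbbe1.2 and hbbe2) matched no row, and of the muscle list 4 of 21. Rows without a name held 24.7% of counts, so both sums may leave out RNA of these tissues. By the muscle sum, RNA of tissues other than red cells was present, and fewer cells of a type and less RNA per cell cannot be told apart.

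None of the 41 genes passed the threshold between treated and control libraries. Adjusted p ran from 0.602 to 0.999 in edgeR's test, and 0% of all 14249 genes passed, while 987 had an unadjusted p no larger than 0.05. DESeq2 called 18 genes and limma-voom with sample weights 1, and no member was among them. The members at an unadjusted p of at most 0.05 were 3, the phosphatase subunit ppp1r15a, the glutathione-degrading enzyme CHAC1 and the ER chaperone CALR, all with lower treated values. That is 7.32% of the members, beside 3.30% of all genes tested that were lower at that p and 6.93% in either direction. When treated 6 was left out, 0 members passed, beside 0.00683% of all genes in edgeR's test, and 0 had an unadjusted p of at most 0.05, beside 7.36% of all genes (3.79% lower). When treated 5 was left out, 8 members were lower at that p (19.5%), beside 3.94% of all genes, and 0 passed. Treated and control values did not overlap for 2 members, CALR (lower) and the ATF6-cutting protease MBTPS1 (higher), which is 4.88% of members beside 4.62% of all genes. Without treated 6 the same 2 members did not overlap, beside 8.93% of all genes (4.44% higher and 4.49% lower).

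By arm, the fitted fold change was below 0 for 9 of 10 genes of the ATF4 arm (median log2 fold change -0.23), 9 of 14 of the XBP1 arm (-0.11), 6 of 11 of the ATF6 arm (-0.018) and 3 of 6 sensors and their partners (-0.016). Over all genes tested it was below 0 for 50.5%, with a median of -0.0045. Without treated 6 the counts were 8 of 10 for the ATF4 arm (median -0.12), 8 of 14 for the XBP1 arm (-0.094), 3 of 11 for the ATF6 arm (0.11) and 3 of 6 for the sensors (-0.0036), beside 50.9% of all genes (median -0.0078). The median of the ATF6 arm thus had another sign without that library, as it had without treated 7 (0.0052), control 1 (0.0029) or control 3 (0.026). That of the ATF4 arm was closer to 0 by over 1.5 times without treated 6 and stayed below 0 with each of the 8 libraries left out. The XBP1 arm had a median of 0.018 without control 3, of -0.022 without treated 7 and of -0.23 without treated 5. The 95% interval of the fold change lay within a 2-fold change in either direction for 35 of 41 members and within 1.5-fold for 18. Of all 14249 genes tested, 8721 lay within 2-fold and 3661 within 1.5-fold. The median SE was 0.20 for members and 0.28 for all genes tested.

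**Figure D1:**
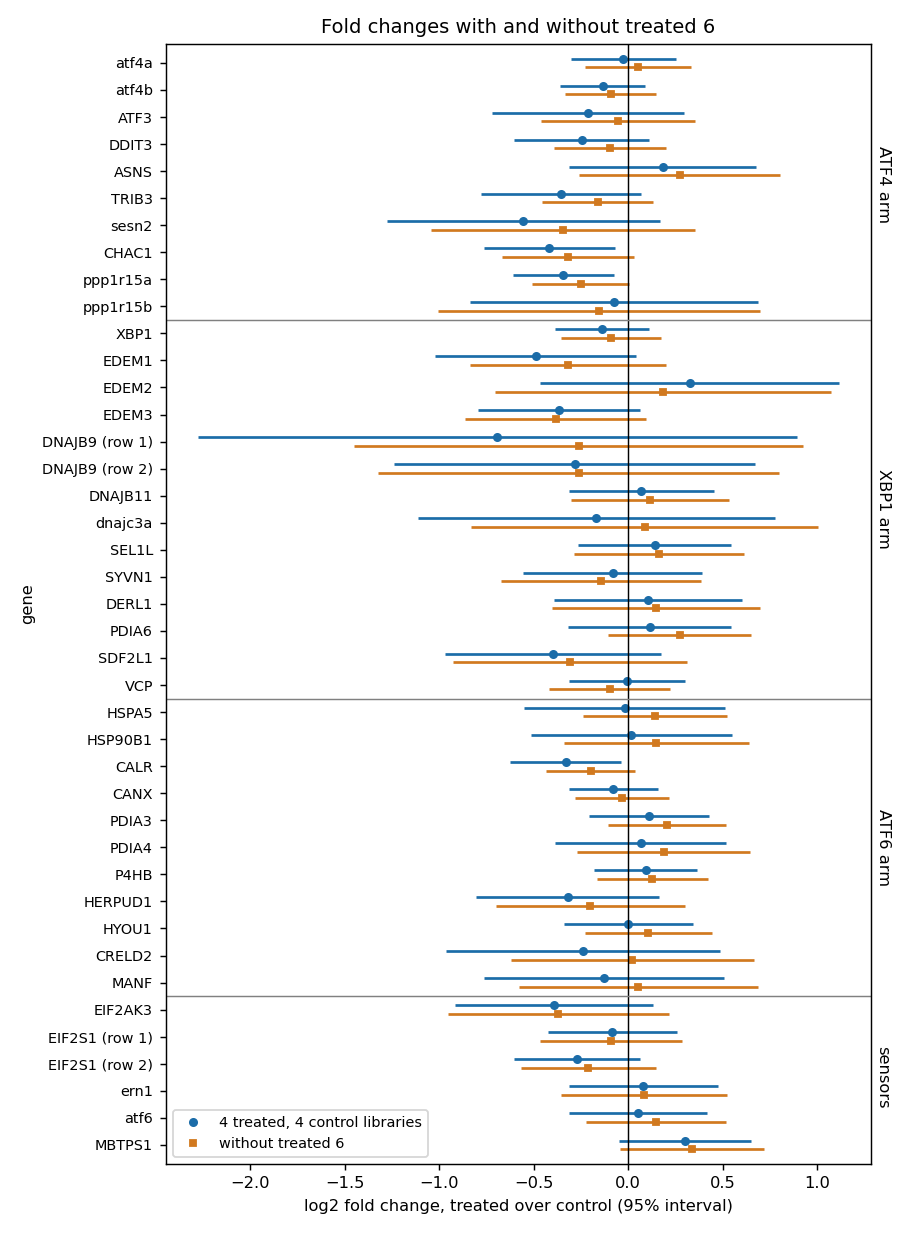
Log2 fold change of treated over control for the 41 genes, grouped by arm, with 95% intervals from edgeR's quasi-likelihood fit, for all 8 libraries (circles) and without treated 6 (squares). The intervals of ppp1r15a, CHAC1 and CALR exclude 0 with all libraries, and none of the 41 does without treated 6.

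Treated 6 was the lowest library more often than any other in these genes. It held the lowest CPM of all 8 libraries for 22 of 41 members (53.7%), where it was the lowest for 12.6% of all genes tested. The next most frequent lowest library was control 2, with 6 members. Treated 6 was lowest for 8 of 10 genes of the ATF4 arm, 6 of 14 of the XBP1 arm, 6 of 11 of the ATF6 arm and 2 of 6 sensors. This library was singled out before the present comparison with values of these genes known, so the share describes it and carries no test. The fits without treated 6, above and below, are descriptions for the same reason. Leaving out a library that is low in many of these genes raises their treated means, and fewer treated libraries remain. The total and the scaling factor of treated 6 lay inside the range of the other libraries. Lists outside the pathway also had 1 library at an extreme for many genes. Treated 8 was highest for 16 of 17 muscle genes and control 1 for 12 of 18 immediate early genes, beside 14.2% and 11.9% of all genes.

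**Figure D2:**
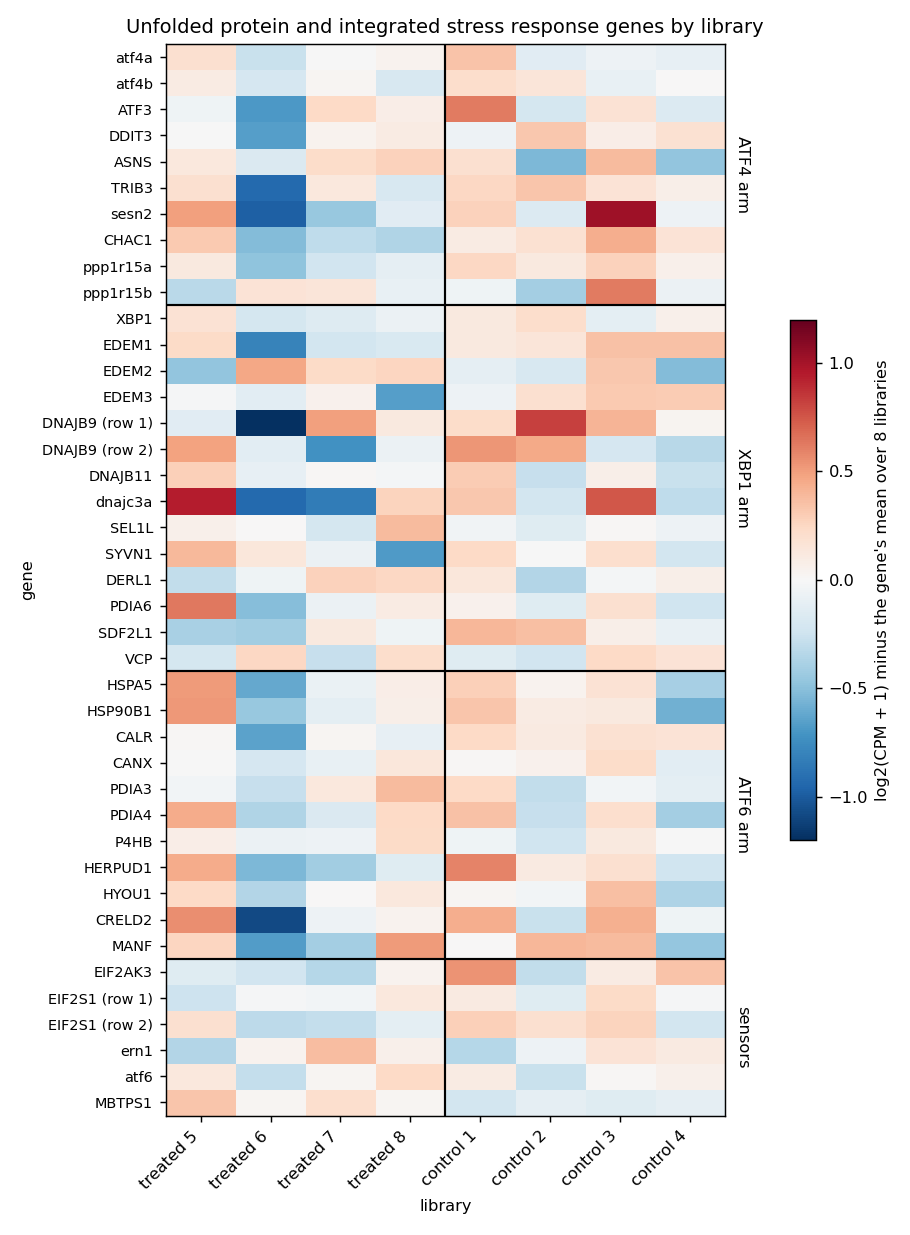
Level of each of the 41 genes (rows, by arm) in each library (columns), as log2(CPM + 1) minus the gene's mean over the 8 libraries, with colours limited to 1.2 in either direction. The column of treated 6 is below 0 (blue) for 9 of 10 genes of the ATF4 arm and for all 11 of the ATF6 arm, and that of treated 5 is mostly above 0 (red) in the same rows.

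The sensors stand at the top of the pathway, and none of them passed. EIF2AK3, the PERK kinase, held 13.2, 12.4, 11.4 and 15.2 CPM in treated 5, 6, 7 and 8, against 21.8, 11.8, 15.8 and 18.9 CPM in control 1, 2, 3 and 4. All 4 treated values lay inside or below the control range, which reached down to control 2, and the fold change was -0.39 ± 0.25 (SE, adjusted p = 0.806 in edgeR; -0.37 ± 0.27 without treated 6). The IRE1 gene ern1 held 32.0, 42.5, 53.4 and 43.1 CPM in treated 5, 6, 7 and 8, against 32.3, 39.5, 46.1 and 44.6 CPM in control 1, 2, 3 and 4. Its groups overlapped throughout, with the lowest value in treated 5 and the highest in treated 7 (fold change 0.081 ± 0.19, interval -0.31 to 0.48). The gene atf6 held 43.9, 32.6, 40.8 and 47.4 CPM in treated 5, 6, 7 and 8, against 43.0, 33.1, 40.6 and 42.0 CPM in control 1, 2, 3 and 4, with treated 6 and control 2 at nearly the same low level and the other 6 libraries between 40.6 and 47.4 CPM. Its fold change was 0.051 ± 0.17 and its adjusted p 0.970 in edgeR's test.

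MBTPS1, the protease that makes the first cut of ATF6, held 43.1, 34.7, 39.3 and 34.7 CPM in treated 5, 6, 7 and 8, against 29.1, 31.6, 30.6 and 31.6 CPM in control 1, 2, 3 and 4. Every treated library lay above every control, with a gap from 31.6 to 34.7 CPM. The fold change was 0.30 ± 0.16 (interval -0.05 to 0.65, unadjusted p = 0.0879, adjusted p = 0.771 in edgeR) and 0.34 ± 0.18 without treated 6, and 2.34% of all genes tested were higher in treated libraries without overlap. The eIF2 alpha rows had fold changes of -0.083 ± 0.16 for row 1 and -0.27 ± 0.16 for row 2. Row 2 averaged 71.5 ± 12.2 CPM in treated and 86.1 ± 13.3 CPM in control libraries (SD, n = 4 each) and did not pass (adjusted p = 0.777 in edgeR).

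In the ATF4 arm the messages of ATF4 itself had fitted values closer to 0 than those of most targets. The paralog atf4a held 274, 199, 238 and 246 CPM in treated 5, 6, 7 and 8, against 303, 218, 229 and 223 CPM in control 1, 2, 3 and 4. Control 1 was the highest library and treated 6 the lowest, the groups overlapped, and the fold change was -0.025 ± 0.13 (interval -0.30 to 0.25). Its sign turned without treated 6, to 0.052 ± 0.13. The other paralog, atf4b, held 490.2, 397, 465 and 402 CPM in treated 5, 6, 7 and 8, against 529, 506, 432 and 459 CPM in control 1, 2, 3 and 4, with 2 treated libraries (6 and 8) below every control. The fold change of atf4b was -0.14 ± 0.11 (adjusted p = 0.850 in edgeR). ATF4 is known to be governed mainly at the step of translation.

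ATF3, a stress-induced repressor downstream of ATF4, held 231, 149, 283 and 253 CPM in treated 5, 6, 7 and 8, against 370.5, 206, 271 and 213 CPM in control 1, 2, 3 and 4. Treated 6 was the lowest and control 1 the highest, and the other 6 libraries lay between 206 and 283 CPM. Its fold change of -0.21 ± 0.23 was -0.055 ± 0.19 without treated 6. DDIT3, which encodes the pro-apoptotic factor CHOP, held 76.8, 48.4, 79.4 and 82.9 CPM in treated 5, 6, 7 and 8, against 74.2, 97.0, 81.9 and 87.7 CPM in control 1, 2, 3 and 4. Here 7 libraries lay between 74.2 and 97.0 CPM and treated 6 alone lay below them. The fold change of DDIT3 was -0.25 ± 0.17 with treated 6 and -0.10 ± 0.14 without it (adjusted p = 0.818 and 0.932 in edgeR).

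TRIB3, a pseudokinase that restrains ATF4 and AKT, held 105, 47.4, 99.8 and 80.2 CPM in treated 5, 6, 7 and 8, against 109, 116, 103 and 96.0 CPM in control 1, 2, 3 and 4. The value of treated 6 was the lowest by a wide gap, followed by treated 8, and treated 5 and 7 lay inside the control range. Its fold change was -0.36 ± 0.20, and -0.16 ± 0.14 without treated 6. The gene sesn2, an inhibitor of mTORC1 signalling, held 26.9, 9.07, 13.5 and 17.1 CPM in treated 5, 6, 7 and 8, against 23.1, 16.7, 39.0 and 18.01 CPM in control 1, 2, 3 and 4. Its values were spread widely in both groups, with control 3 highest, and the fold change of -0.56 ± 0.34 had an interval from -1.28 to 0.17. It was -0.35 ± 0.33 without treated 6, -0.24 without control 3 and -0.86 without treated 5. ASNS, the asparagine synthetase, was the 1 gene of the arm with a fitted value above 0 (0.18 ± 0.23), with controls 2 and 4 below every treated library and controls 1 and 3 inside or above the treated range.

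CHAC1 and ppp1r15a had the smallest p-values of the 41 genes. The ATF4 and CHOP target CHAC1 held 187, 104, 121 and 117 CPM in treated 5, 6, 7 and 8, against 161, 171, 204 and 168 CPM in control 1, 2, 3 and 4. Treated 6, 7 and 8 lay below every control, and treated 5 lay inside the control range. CHAC1 averaged 132 ± 37.2 CPM in treated and 176 ± 19.2 CPM in control libraries (SD, n = 4 each), a fold change of -0.42 ± 0.16 (unadjusted p = 0.0215, adjusted p = 0.629 in edgeR). Without treated 6 it was -0.32 ± 0.16 (unadjusted p = 0.0693 in edgeR).

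The gene ppp1r15a encodes GADD34, which brings a phosphatase to eIF2 alpha and so ends the response. It held 229, 151, 179 and 195 CPM in treated 5, 6, 7 and 8, against 251, 228, 255 and 219.8 CPM in control 1, 2, 3 and 4. Treated 6, 7 and 8 again lay below every control and treated 5 among them. The means were 188 ± 32.6 CPM in treated and 238 ± 17.1 CPM in control libraries (SD, n = 4 each), with a fold change of -0.34 ± 0.13 (unadjusted p = 0.0155, adjusted p = 0.602 in edgeR), and -0.25 ± 0.12 without treated 6 (unadjusted p = 0.0543 in edgeR). Its constitutive relative ppp1r15b stood between 4.36 and 10.00 CPM in the 8 libraries and had a fold change of -0.075 ± 0.36.

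**Figure D3:**
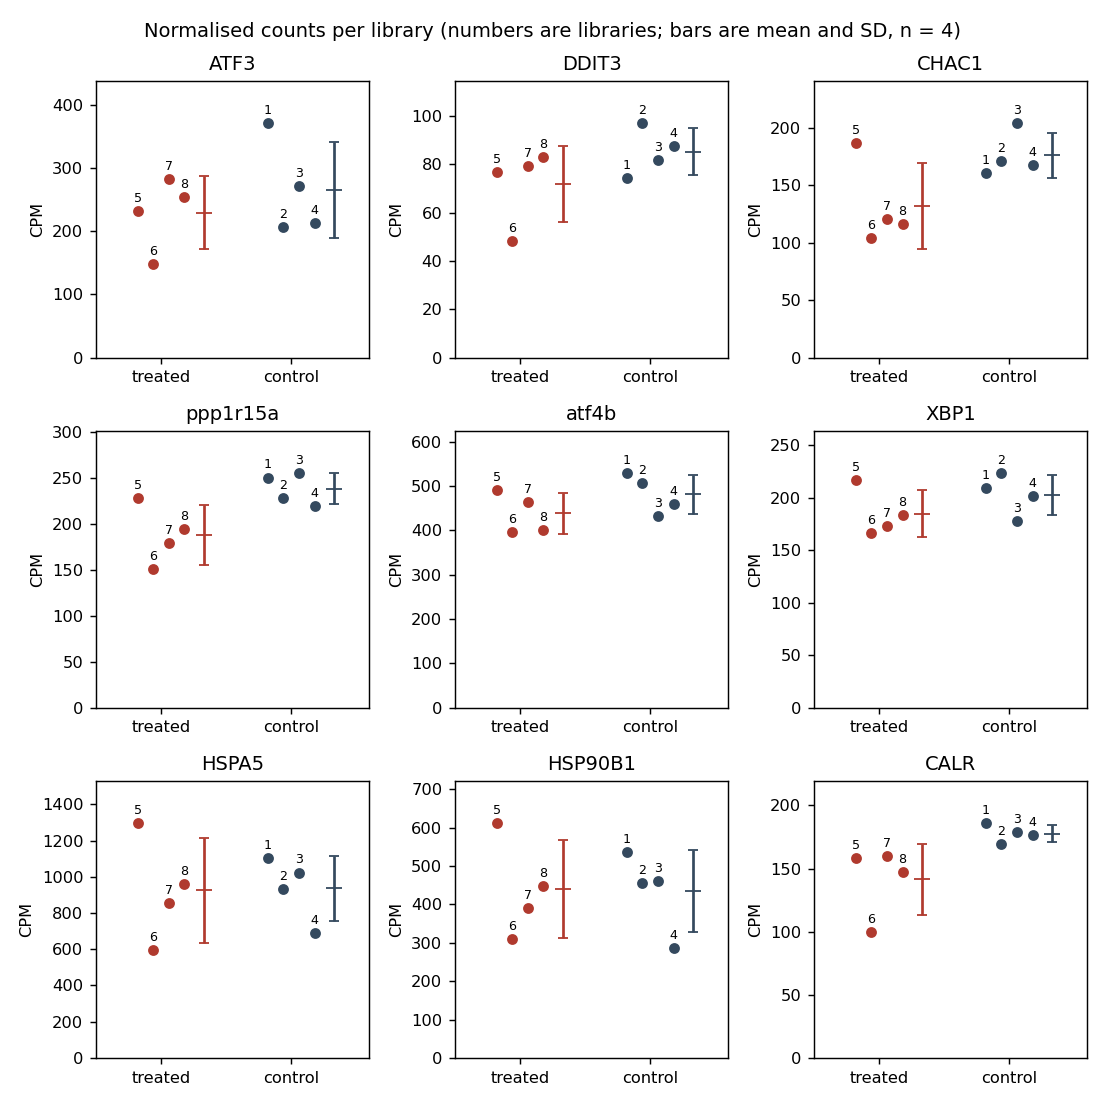
CPM of 9 genes in each library, treated left and control right in each panel, numbered by library, with the mean and SD of each group (n = 4). Treated 6 is the lowest treated point in each of the 9 panels, and CALR is the 1 panel without overlap between the groups.

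In the XBP1 arm no gene had an unadjusted p of at most 0.05. XBP1 itself held 217, 166, 173 and 183 CPM in treated 5, 6, 7 and 8, against 209, 223, 177 and 201 CPM in control 1, 2, 3 and 4. The groups overlapped, with treated 5 among the highest and treated 6 the lowest, and the fold change was -0.14 ± 0.12 (interval -0.38 to 0.11, adjusted p = 0.859 in edgeR). The lectins that pass misfolded glycoproteins to degradation differed in sign. EDEM1 and EDEM3 had values of -0.49 ± 0.25 and -0.37 ± 0.20, and EDEM2 had 0.33 ± 0.37. EDEM1 averaged 13.1 ± 3.93 CPM in treated and 18.2 ± 1.68 CPM in control libraries (SD, n = 4 each), with the lowest value, 8.29 CPM, in treated 6. EDEM2, at lower counts, had its highest value, also 8.29 CPM, in treated 6, and EDEM3 was lowest in treated 8.

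The ER DnaJ co-chaperones were measured at low counts in part. DNAJB9 row 1 held 2.56, 0, 4.497 and 3.25 CPM in treated 5, 6, 7 and 8, against 3.56, 5.90, 4.19 and 3.001 CPM in control 1, 2, 3 and 4, so that treated 6 had no count of it. Its fold change of -0.69 ± 0.75 was -0.26 ± 0.55 without treated 6, and row 2 had -0.28 ± 0.45. The gene dnajc3a, which encodes the PERK inhibitor p58IPK, held 17.9, 4.14, 4.497 and 10.8 CPM in treated 5, 6, 7 and 8, against 11.3, 7.44, 15.5 and 6.93 CPM in control 1, 2, 3 and 4. Treated 5 was the highest and treated 6 and 7 the lowest, and the fold change turned from -0.17 ± 0.44 with all libraries into 0.087 ± 0.43 without treated 6. DNAJB11 stood between 33.6 and 50.7 CPM with a fold change of 0.069 ± 0.18.

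Of the degradation machinery of the ER membrane, SEL1L, SYVN1, DERL1 and VCP had fitted values near 0, and HERPUD1, described below, had -0.32 ± 0.23. SEL1L and SYVN1, adaptor and ubiquitin ligase of one complex, had fold changes of 0.14 ± 0.19 and -0.081 ± 0.22, and the channel component DERL1 had 0.11 ± 0.23. VCP, the ATPase that pulls proteins out of the ER, held 218, 302, 208 and 293 CPM in treated 5, 6, 7 and 8, against 229, 216, 298 and 283 CPM in control 1, 2, 3 and 4, and treated 6 was here the highest library. Its fold change was -0.0054 ± 0.14. SDF2L1, a partner of the ER Hsp40 proteins, had -0.40 ± 0.27. The disulfide isomerase PDIA6 held 121, 54.4, 74.0 and 83.7 CPM in treated 5, 6, 7 and 8, against 80.7, 70.3, 89.3 and 66.0 CPM in control 1, 2, 3 and 4, with treated 5 highest and treated 6 lowest, and its fold change was 0.12 ± 0.20 and 0.27 ± 0.18 without treated 6.

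The most used markers of the ATF6 arm had almost equal means in both groups and a wide spread within each. HSPA5, which encodes BiP, the main Hsp70 of the ER and the usual marker of its stress, held 1295, 594, 857 and 962 CPM in treated 5, 6, 7 and 8, against 1106, 932, 1024 and 691 CPM in control 1, 2, 3 and 4. Both the highest and the lowest library were treated ones, 5 and 6, and control 4 was the next lowest. The means were 927 ± 290.1 CPM in treated and 938 ± 179.7 CPM in control libraries (SD, n = 4 each), a fold change of -0.018 ± 0.23 with an interval from -0.55 to 0.51 (adjusted p = 0.992 in edgeR). Without treated 6 it was 0.14 ± 0.17. HSP90B1, the ER Hsp90 (GRP94), held 611, 310.1, 392 and 447 CPM in treated 5, 6, 7 and 8, against 537, 455, 461 and 285 CPM in control 1, 2, 3 and 4. Treated 5 and control 1 were its highest libraries and control 4 and treated 6 its lowest, and its fold change was 0.016 ± 0.24.

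CALR, calreticulin, which folds glycoproteins and holds calcium, held 158, 100.0, 160.1 and 147 CPM in treated 5, 6, 7 and 8, against 186, 169.6, 179 and 176 CPM in control 1, 2, 3 and 4. The controls lay close together and every treated library lay below them, as for 2.29% of all genes tested. Its means were 141 ± 28.2 CPM in treated and 178 ± 6.62 CPM in control libraries (SD, n = 4 each), and its fold change was -0.33 ± 0.14 (unadjusted p = 0.0298, adjusted p = 0.656 in edgeR). Without treated 6 the groups still did not overlap and the fold change was -0.20 ± 0.11 (unadjusted p = 0.0925 in edgeR). The membrane-bound relative CANX had -0.08 ± 0.11 (interval -0.32 to 0.16).

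The oxidoreductases PDIA3, PDIA4 and P4HB had fold changes of 0.11 ± 0.15, 0.066 ± 0.21 and 0.092 ± 0.13, and HYOU1, which reloads BiP with nucleotide, had 0.0017 ± 0.16. Their groups overlapped, and the intervals of all 4 lay within 1.5-fold. HERPUD1, which organises the degradation complex, averaged 49.2 ± 16.6 CPM in treated and 60.9 ± 14.9 CPM in control libraries (SD, n = 4 each; fold change -0.32 ± 0.23). CRELD2, a secreted ER stress gene, held 16.6, 4.66, 10.5 and 11.4 CPM in treated 5, 6, 7 and 8, against 15.3, 8.98, 15.2 and 10.6 CPM in control 1, 2, 3 and 4. Its fold change was -0.24 ± 0.34 with treated 6 and 0.022 ± 0.30 without it. MANF, a secreted survival factor kept in the ER by BiP, held 20.1, 10.1, 12.3 and 24.1 CPM in treated 5, 6, 7 and 8, against 16.8, 22.3, 21.9 and 11.8 CPM in control 1, 2, 3 and 4, and its fold change turned from -0.13 ± 0.30 with all libraries into 0.053 ± 0.30 without treated 6.

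The arms were also set side by side as the mean over genes of log2 CPM, centred for each gene on its mean over the 8 libraries. The ATF4 arm stood at 0.11, -0.48, -0.021 and -0.058 in treated 5, 6, 7 and 8, against 0.21, -0.04, 0.31 and -0.04 in control 1, 2, 3 and 4. The XBP1 arm stood at 0.12, -0.36, -0.10 and -0.0029 in treated, against 0.16, 0.057, 0.20 and -0.076 in control libraries, in the same order. The ATF6 arm stood at 0.28, -0.49, -0.12 and 0.15 in treated, against 0.23, -0.028, 0.22 and -0.24 in control libraries. In each of the 3 arms treated 6 was the lowest library by this mean, and controls 1 and 3 lay above controls 2 and 4. The mean gives each row the same weight, DNAJB9 row 1 (no count in treated 6) included. By summed CPM the XBP1 arm was lowest in treated 7 (642), followed by treated 6 (696) and control 2 (700). The ATF4 and ATF6 arms were lowest in treated 6 by that sum too. Treated minus control was -0.22 for the ATF4 arm, -0.17 for the XBP1 arm and -0.089 for the ATF6 arm, and without treated 6 -0.10, -0.077 and 0.058. The SD was 0.26 among treated and 0.18 among control libraries for the ATF4 arm, 0.21 and 0.12 for the XBP1 arm, and 0.34 and 0.22 for the ATF6 arm (n = 4 each). With all libraries, the differences of the ATF4 and XBP1 arms were thus smaller than the treated SD, which includes treated 6, and larger than the control SD, and that of the ATF6 arm was smaller than both.

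**Figure D4:**
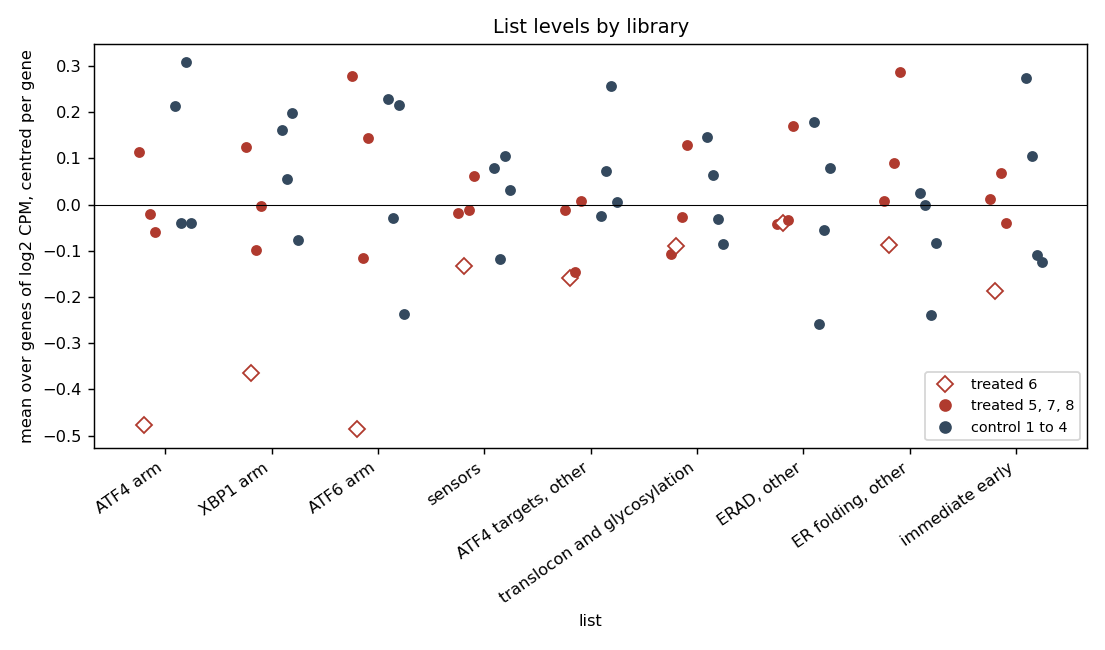
Mean over genes of log2 CPM, centred per gene, for the 3 arms, the sensors and 5 further lists (x axis), with 1 point per library, treated left of control within each list. The open diamond, treated 6, is the lowest point of the ATF4, XBP1 and ATF6 arms. It is also the lowest, by smaller gaps, of the sensors, other ATF4 targets and immediate early genes. It lies among the other points for translocon, ER degradation and other folding genes.

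Further genes of the pathway, taken from lists of known function, were counted in the same fit. Of 38 tested rows of other ATF4 targets (amino acid synthesis and transport, tRNA ligases, stress factors), 28 had fitted values below 0 and 10 above, with a median of -0.17. 0 passed, 7 had an unadjusted p of at most 0.05 and lower treated values (18.4%, beside 3.30% of all genes), and 0 had higher ones (beside 3.63%). Without treated 6 there were 5 lower (beside 3.79%) and 1 higher (beside 3.58%), and the median was -0.11.

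The smallest p in this list belonged to CEBPB, a partner of ATF4 on DNA, which held 95.1, 82.4, 72.8 and 69.9 CPM in treated 5, 6, 7 and 8, against 145, 105, 104 and 103 CPM in control 1, 2, 3 and 4. Its groups did not overlap, and its fold change was -0.52 ± 0.15 (adjusted p = 0.562 in edgeR), and -0.54 ± 0.16 without treated 6. SLC3A2, the heavy chain of amino acid exchangers, held 87.5, 52.6, 57.6 and 57.2 CPM in treated 5, 6, 7 and 8, against 97.9, 90.8, 110.3 and 79.4 CPM in control 1, 2, 3 and 4. Treated 6, 7 and 8 lay below every control, and the fold change was -0.58 ± 0.17 (adjusted p = 0.562 in edgeR). The row of its paralog slc3a2a, at lower counts, had the other sign (0.15 ± 0.35). There treated 6 and 7 lay above every control and treated 5 below. The secreted stress hormone STC2 (row 1), at low counts, averaged 3.49 ± 0.795 CPM in treated and 8.30 ± 2.88 CPM in control libraries (SD, n = 4 each; fold change -1.22 ± 0.39, adjusted p = 0.563 in edgeR). Like CHAC1 and ppp1r15a, the genes CEBPB, SLC3A2 and STC2 did not pass.

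The further lists of ER and translation genes gave other counts. Translocon and glycosylation genes had a median of -0.079, with 15 of 33 above 0. An unadjusted p of at most 0.05 was found for 2 of them (6.06%, beside 6.93% of all genes in either direction). Of these 2, the signal peptidase subunit SEC11A was higher (0.69 ± 0.25) and TUSC3, of the oligosaccharyl transferase, lower (-0.78 ± 0.31). Other ER degradation genes had a median of 0.047, with 12 of 22 above 0, and none at that p. Other ER folding genes had a median of 0.14, with 27 of 34 above 0. The folding sensor UGGT2 (0.42 ± 0.18, adjusted p = 0.669 in edgeR) was the 1 folding gene at that p (2.94%, beside 6.93% of all genes). The eIF2 kinases and factors had a median of -0.008, with 7 of 15 above 0, and the smallest p belonged to the eIF2 beta subunit EIF2S2 (0.24 ± 0.13). The CREB3 family with its secretory pathway targets had a median of 0.0066 over 13 genes. 0 genes of these 5 lists passed.

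These lists also differ in how often treated 6 was the lowest library. It was lowest for 13 of 38 other ATF4 targets (34.2%), but for 2 of 33 translocon and glycosylation genes (6.06%), 2 of 22 other ER degradation genes (9.09%), 3 of 34 other folding genes (8.82%) and 1 of 15 eIF2 kinases and factors (6.67%), beside 12.6% of all genes. The differences between lists were not tested.

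**Figure D5:**
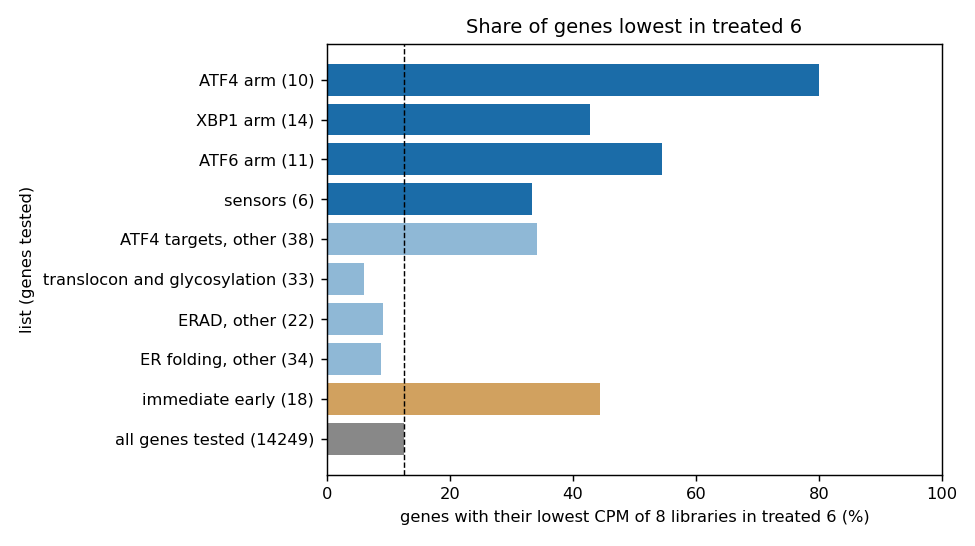
Share of the tested genes of each list (bars, % of genes, number tested in brackets) whose lowest CPM of the 8 libraries was in treated 6; the dashed line is the share over all genes tested. The ATF4, XBP1 and ATF6 arms, the sensors, other ATF4 targets and immediate early genes lie above the line of 12.6%, and translocon, ER degradation and folding lists lie below it.

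Immediate early genes, which are known to respond fast to handling and growth signals, were also low in treated 6. Their summed level was 3470.0, 2735, 3598 and 3445 CPM in treated 5, 6, 7 and 8, against 4357, 3574, 3169 and 3080.1 CPM in control 1, 2, 3 and 4. Treated 6 was the lowest library in this sum and control 1 the highest. Treated 6 was lowest for 8 of 18 tested genes of the list (44.4%). The AP-1 subunit FOSL1 held 388, 201, 406 and 481 CPM in treated 5, 6, 7 and 8, against 532, 378, 359 and 336 CPM in control 1, 2, 3 and 4. The part of handling in the member values was not tested.

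Summed markers of hatching gland, notochord, muscle, red cells and epidermis were not lowest in treated 6. It was the lowest library for 0 of 6 hatching gland, 0 of 11 notochord, 0 of 17 muscle and 0 of 16 red cell genes, and for 4 of 14 epidermal and mucous genes. The summed level of hatching gland markers was 106, 82.4, 34.8 and 263 CPM in treated 5, 6, 7 and 8, against 68.1, 123, 123 and 50.1 CPM in control 1, 2, 3 and 4, highest in treated 8 and lowest in treated 7. Notochord markers summed to 1763, 3099, 2862 and 2333 CPM in treated, against 1755, 1886, 1831 and 2862 CPM in control libraries, in the same order, with treated 6 highest. Between the groups, muscle markers were fitted higher in treated libraries for 17 of 17 genes (median 0.81), notochord markers higher for 10 of 11 (0.34), red cell markers lower for 15 of 16 (-0.25) and liver and yolk markers lower for 9 of 10 (-1.07, and -1.59 without treated 6). Control 1 alone was the lowest library for all 17 muscle genes. Its muscle sum was 1972 CPM, against 7538 to 17654 CPM in the other controls and 10824 to 24176 CPM in treated libraries. In edgeR's test 0 genes of the marker lists passed. Without adjustment, 1 muscle gene (higher, 5.88%) and 1 epidermal and mucous gene (lower, 7.14%) had p of at most 0.05, beside 6.93% of all genes in either direction. So did 1 immediate early gene (lower, 5.56%). In the hatching gland, notochord, red cell and liver and yolk lists 0 genes had such a p. Liver and yolk markers summed to 177, 189, 127 and 154 CPM in treated 5, 6, 7 and 8, against 137, 234, 595 and 180.1 CPM in control 1, 2, 3 and 4. They were highest in control 3, which was also the highest library of the ATF4 arm by the mean of centred log2 CPM. By summed CPM the ATF4 arm was highest in control 1 (1858, against 1662 in control 3). Of the muscle and red cell markers, MYOG and SLC4A1 row 2 were at 0 in at least 1 library. The part of tissue make-up in the member values was not tested.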

How the data were processed

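Total RNA of 8 embryo samples was sequenced as paired 100 bp reads after a stranded low-input total RNA preparation with probes against mammalian ribosomal sequences, per the labels' protocols. What the authors deposited is a single table of raw counts for each gene, all whole numbers. The submitters' processing notes name the build GRCz11 and, with no roles, HISAT2 2.1.0, StringTie 1.3.3b, DESeq2 1.22.1, CASAVA 1.8.2 and Trim Galore 0.5.0. The sources used here do not state the annotation, the counting step or its strand setting, so overlapping, antisense and near-identical genes are uncertain. Symbols came from a supplied name table by gene ID (28975 of 32020 rows), and rows without a name held 24.7% of counts and stayed in the fit. 0 sample columns were left out. No sequences or coordinates were used here.

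Groups came from the sample titles. Counts were filtered with filterByExpr (14249 genes), scaled by TMM and compared with the quasi-likelihood F-test of edgeR 4.0.16 (R 4.3.3, robust, no covariate), with Benjamini-Hochberg adjustment over all genes tested. The biological coefficient of variation was 0.265. Standard errors and 95% intervals follow from the fold change and its F statistic. Log2 CPM for list levels used a prior count of 2. The steps were tested on simulated counts. There 1 of 50 genes with a 1.5-fold change passed and 20 of 50 with a 2-fold change. Of those with larger changes, 36 of 50 passed at 3-fold and 41 of 50 at 5-fold. Of 14049 genes simulated without a change, 13 passed too, so that false calls were among the genes that passed. Alternatives were DESeq2 size factors, total count scaling, no filter, a filter of 5 CPM, DESeq2 1.42.0, limma 3.58.1 voom with sample weights, and each library left out in turn. Figures used Python 3.11.15 with matplotlib 3.10.9.

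The members, arms and lists were chosen with earlier results of these data known. Every member may be named, and values in each library are given for core genes of the pathway, members without overlap between groups, members at an unadjusted p of at most 0.05 with or without treated 6, and the 6 members whose fold change shifted most without treated 6. From other lists, up to 3 genes of smallest p are named, and slc3a2a is named outside that rule as the paralog of SLC3A2. From marker lists, genes among the 3 of highest mean are named, and alas2, MYOG and SLC4A1 row 2 are named outside that rule. VCP, PDIA6 and slc3a2a were added after their values were seen.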

Additional observations from a re-analysis of the deposited data

Results flagged for a closer look

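The level of atf4a in control 1, 303 CPM, stood far above those of the other 3 controls, which lay between 218 and 229 CPM. The gap was 0.871 of the group's whole range, above the critical value of Dixon's test for 4 samples. It was the 1 flag among 82 groups of 4 values (41 members in 2 groups), where chance flags about 1 in 20. No value of treated 6 was far enough from the other treated libraries to be flagged in this way.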

How the results depend on the processing

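0 members passed the threshold under all 14 alternatives, the DESeq2 run included, in which the adjusted p of 5 of the 41 members was not given. The count of genes called over the whole table was 0 and became 4 with no low-count filter, 2 with a mean of at least 5 CPM, 18 in DESeq2 and 1 in limma-voom with sample weights, and 0 to 1 with single libraries left out (1 without treated 6 and 1 without treated 7). The cause was not tested. Members at an unadjusted p of at most 0.05 (3 with all libraries) were 3 under each other scaling, filter and tool, and 0 to 8 with single libraries left out: 0 without treated 6, 1 without control 3 and 8 without treated 5 (CHAC1, ppp1r15a, HERPUD1, sesn2, EDEM1, CALR, EIF2S1 row 2 and TRIB3, all lower, which is 19.5% of members beside 3.94% of all genes). With single libraries left out, medians ran from -0.31 to -0.12 for the ATF4 arm, -0.23 to 0.018 for the XBP1 arm, -0.18 to 0.11 for the ATF6 arm and -0.088 to 0.02 for the sensors, and limma-voom gave 0.0032 for the ATF6 arm. Of the 20 members given by library under the naming rule, 12 kept their sign in all their alternatives. The sign turned for ern1 (2 of 14), atf6 (2), atf4a (3), dnajc3a (3), HSPA5 (5), HSP90B1 (3), CRELD2 (1) and MANF (1). It also turned for VCP and PDIA6, which were added later. With single libraries left out, the fold change ran from -0.097 to 0.076 for VCP and from -0.11 to 0.27 for PDIA6. Totals averaged 3343150 counts in treated and 4012700 in control libraries (exact permutation test, two-sided, p = 0.2, n = 4 each), and the difference of -669551 ran from -963128 to -389380 with single libraries left out. No paired analysis was possible because the groups share no replicate number. At these depths DNAJB9, EDEM2, ppp1r15b and dnajc3a rest on few counts.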
